A study of Mus musculus with 3 samples.

Results

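The noncoding processed transcripts are the transcripts that the deposited tables class as processed_transcript, which means spliced transcripts with no annotated open reading frame. All rows of that class were taken from the table of the Mettl3 immunoprecipitation and from the table of the Zfp217 immunoprecipitation, except those of 8 symbols (Tug1, Neat1, Malat1, Meg3, Rian, Tsix, Gas5 and Nhp2l1), which left out 4 rows in each table. This gave 989 of the 9501 transcripts listed for Mettl3 (10.4%, 834 symbols) and 968 of the 8120 listed for Zfp217 (11.9%, 825 symbols), or 1596 of 13595 different transcripts in all. The label noncoding holds for the transcript and mostly not for the gene. Of the 1543 transcripts (96.7%) whose identifier was found in GENCODE M21, 1439 belonged to protein-coding genes, and 104 to noncoding genes or pseudogenes. M21 still classes 1267 of them as processed transcripts, and now calls 128 retained introns, 74 protein-coding and 33 targets of nonsense-mediated decay.

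The study measured which nuclear RNAs came down with Mettl3 or with Zfp217 in CCE, an established line of mouse embryonic stem cells. The cells were untreated, the labels name no genetic change, and they were grown without feeder cells on gelatin in serum with leukemia inhibitory factor. RNA immunoprecipitation (RIP) was done on a lysate of isolated nuclei with an antibody against either protein and protein G beads, and the input stands for the RNA of the cells before selection. Each antibody and the input gave 1 library, so nothing below carries a replicate error or a p-value, and every ratio compares libraries. A control immunoprecipitation was not analysed here, so RNA held by the protein and RNA held by beads or antibody cannot be told apart.

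Mettl3 is the catalytic subunit of the nuclear complex that methylates adenosines of RNA to m6A, and it works mostly at the consensus whose commonest form is GGACT. Zfp217, a chromatin-associated protein with zinc fingers, is known to bind Mettl3. Processed transcripts of coding genes are alternative products of the same locus, often with a partly kept intron, an alternative first or last exon or a truncated end, and they share most of their bases with the mRNA. A read from a shared exon fits the mRNA and the processed transcript alike, so the value of such a transcript is an estimate of how reads were divided.

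What sets such a transcript apart from the mRNA is often a short stretch. Of 1436 transcripts of coding genes whose exons were compared with all coding transcripts of the gene, 235 lay entirely within exons of coding transcripts (untranslated parts included) and 93 had no outside stretch as long as 30 bases. In 1108 the longest outside stretch had at least 30 bases. In 350 of these it followed a coding exon with no splice junction between, and in 330 of the 350 its first 2 bases were GT, the letters that begin most introns. In 322 it ran into a coding exon without a junction, and in 299 of the 322 its last 2 bases were AG, which end most introns. Either held for 592 of 1108 (53.4%). The windows below come from GENCODE M21 transcripts on GRCm38, with 12 bases on each side. They show where an outside stretch meets the shared exon in 8 of the transcripts with the highest ratios or levels. Some of these boundaries have no junction and others are spliced, as each line states. The 8 are a selection, and others such as Sfpq and Plaa are not printed. Capitals mark bases outside every coding exon of the gene, lower case the shared exon.
Clcn3, 175 bases outside, kept intron after the exon: gtggagcccttgGTGATTAGCTGT
Ube2b, 248 bases outside, kept intron after the exon: agttatatttggGTGAGTTGAGCT
Zc3h15, 48 bases outside, intron end kept before the exon: TTGTCTCTATAGgtgtgcagacat
C1qbp, 87 bases outside, intron end kept before the exon: CTGTCTCTCCAGccagaactgaca
Gigyf2, 79 bases outside, spliced to the exon: AAATGAGTGCAGgaagaggaggct
Trp53inp1, 38 bases outside, spliced to the exon: aagtggtcccagGGCCAGAAAAAG
Pabpc1, 42 bases outside, spliced to the exon: AGTACCAATCATggcctgccttaa
Thoc4, 50 bases outside, spliced to the exon: GTAAAGACAAAGgccgccctatga

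Processed transcripts were low in both RIPs and mostly listed at 0 in the input. Their median RIP level was 1.80 FPKM with either antibody (FPKM: fragments per kilobase, corrected for library depth), with quartiles of 1.32 and 3.02 for Mettl3 and 1.30 and 2.78 for Zfp217. Protein-coding transcripts had medians of 3.21 and 2.63 FPKM. The highest processed transcripts stood at 71.9 FPKM in the Mettl3 RIP and 119 FPKM in the Zfp217 RIP, while 56.9% and 57.2% were under 2 FPKM. The input was exactly 0 for 536 of 989 (54.2%) and 572 of 968 (59.1%), against 22.0% and 29.7% of the coding transcripts. Only 194 and 151 had an input of at least 1 FPKM. The tables list a transcript only from 1 FPKM in the RIP and from 1.5 times its input, so every processed transcript here is higher in a RIP by selection, and one that is not listed need not be absent.

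**Figure D1:**
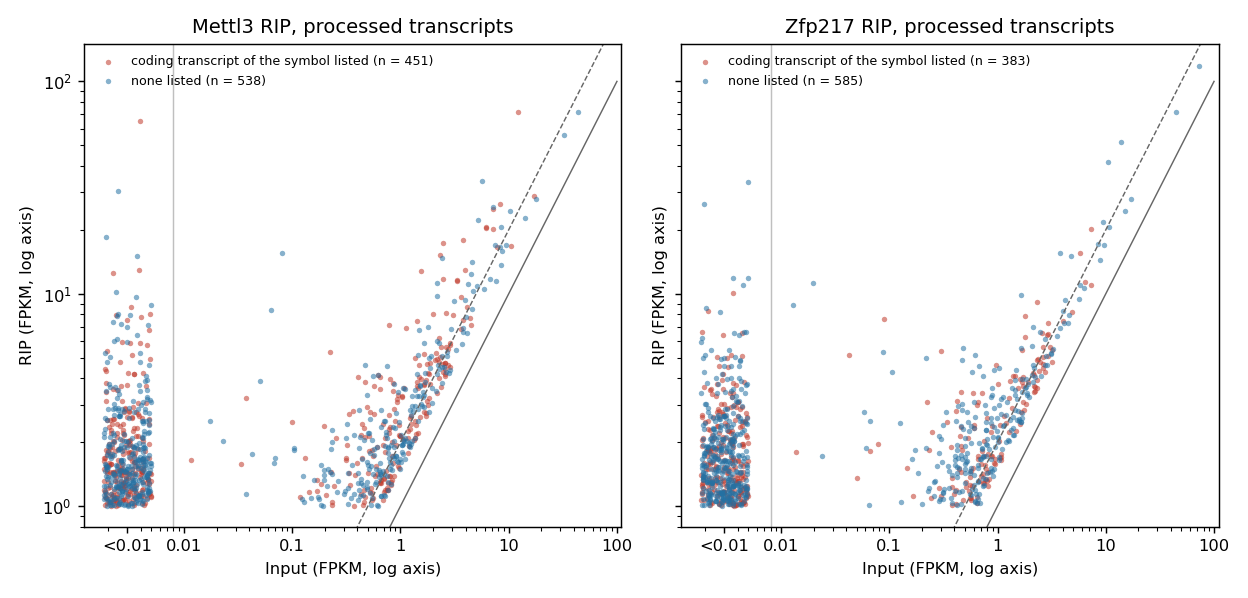
Input against RIP level (FPKM, log axes) of the processed transcripts of each table, 989 for Mettl3 and 968 for Zfp217; each point is 1 transcript, red where a protein-coding transcript of the same symbol is in that table and blue where none is. Inputs under 0.01 FPKM are spread at random within a strip on the left, the solid line marks equal levels and the dashed line a 2-fold difference; the strip holds 55.7% and 60.7% of the points, and all others lie above the solid line.

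Length accompanied the zeros in the input. The processed transcripts had a median length of 699 bases in the Mettl3 table and 670 in the Zfp217 table, in 3 exons at the median, against 3159 and 2394 bases in 8 and 7 exons for coding transcripts. Among transcripts of 300 to under 600 bases, an input under 0.01 FPKM was found for 73.0% of the processed and 71.9% of the coding transcripts for Mettl3, and for 73.3% and 66.0% for Zfp217. At 2000 bases or more the shares were 29.0% and 20.4%, and 33.3% and 30.3%. Within a length class the processed transcripts were thus 1.1 to 8.58 percentage points above the coding ones, where the difference over all lengths was 28.0 points for Mettl3 and 23.7 for Zfp217. Retained-intron transcripts of the same length had shares from 6.35 points above to 12.3 points below those of the processed transcripts.

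**Figure D2:**
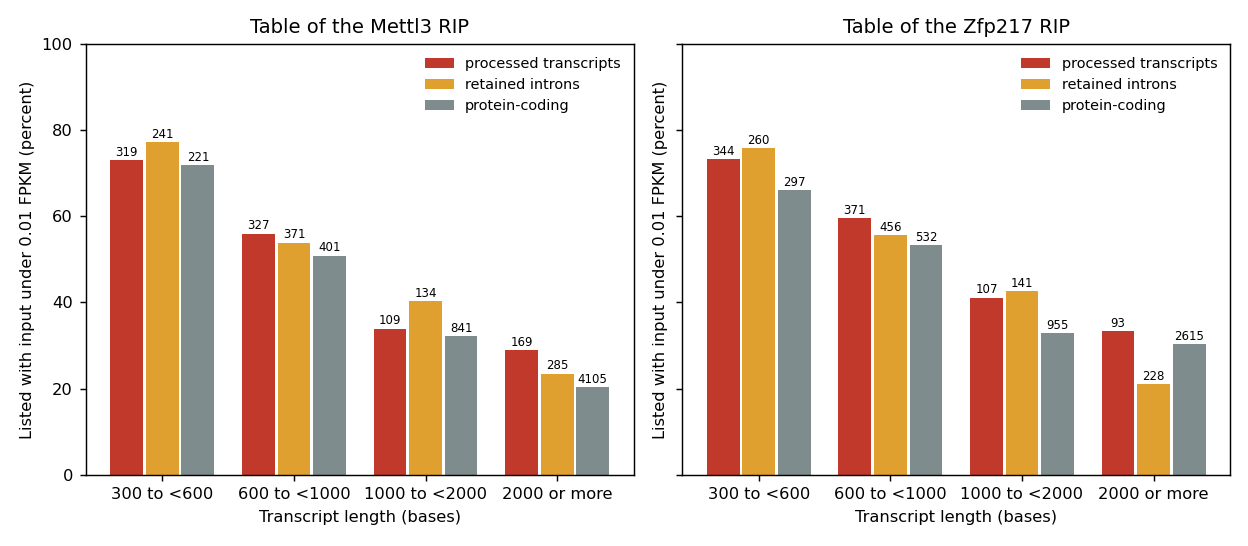
Percent of transcripts with an input under 0.01 FPKM by transcript length in each table, for processed, retained-intron and protein-coding transcripts, with the number of transcripts over each bar. The share falls with length in all classes, from 73.0% to 29.0% of the processed transcripts in the Mettl3 table.

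Sharing of exons moved with the zeros as well. The median processed transcript of a coding gene had 71.2% (Mettl3) and 79.3% (Zfp217) of its bases within exons of coding transcripts. An input under 0.01 FPKM was found for 64.8% and 69.0% of those with at least 90% of their bases shared, and for 44.2% and 45.8% of those with under 50% shared. Few reads stood behind most values. The libraries held an estimated 9760000 (Mettl3 RIP), 7020000 (Zfp217 RIP) and 6140000 (input) fragments, and at these depths 47.3% and 63.8% of the processed transcripts rested on fewer than 10 RIP fragments, against 5.88% and 13% of the coding ones. What part length, shared exons and depth have in the zeros was not tested.

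By the rule of size used here, log2((RIP + 1)/(input + 1)) of at least 1 with a mean of both of at least 1 FPKM, 285 of the 505 processed transcripts of the Mettl3 table that reached that mean (56.4%) were at least 2-fold higher in the RIP, against 51.1% of all listed transcripts. In the Zfp217 table these were 291 of 495 (58.8%), against 49.1%. A transcript with an input of 0 passes the rule as soon as its RIP level reaches 2 FPKM, so these counts follow the zeros. With an input of at least 0.01 FPKM the counts were 117 of 337 (34.7%, all transcripts 37.6%) and 93 of 297 (31.3%, all 28.4%). With at least 1 FPKM they were 56 of 194 (28.9%, all 33.8%) and 27 of 151 (17.9%, all 20.7%), and the median plain FPKM ratio was 2.03 and 1.92, against 2.07 and 1.87 for all transcripts. With the zeros set aside, the shares of the processed transcripts were thus near those of all listed transcripts.

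Among processed transcripts with both values of at least 1 FPKM, the highest Mettl3 ratio was that of Gigyf2, a translational repressor: a 3074-base transcript at 1.54 FPKM in the input and 12.8 in the RIP, 8.30-fold (5.64 to 12.7). Intervals like this one are exact 95% intervals (Clopper-Pearson form) on fragment numbers estimated from the FPKM. They cover counting error only, not the division of reads among transcripts nor the spread between cultures. Mga, a Max-binding transcription factor of a Polycomb complex, went from 2.45 to 17.4 FPKM (7.12-fold, 4.32 to 12.5). Trp53inp1, a p53-induced stress gene, went from 5.63 to 33.8 FPKM on a 5432-base transcript (6.0-fold, 5.15 to 7.03), and with about 183 input and 1748 RIP fragments it is the best measured of these. No coding transcript of Trp53inp1 was listed for Mettl3.

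The next were Hnrpdl (an hnRNP, 2.31 to 15.3 FPKM), Alg13 (an enzyme subunit of protein glycosylation, 2.40 to 14.7), Bptf (the large subunit of the NURF remodeller, 1.12 to 6.88), Pabpc1 (the cytoplasmic poly(A)-binding protein, 12.3 to 71.8) and Clcn3 (an endosomal chloride exchanger, 1.42 to 7.43). Their ratios ran from 6.62 for Hnrpdl down to 5.23 for Clcn3. Of these 8, 7 share at least 94.1% of their bases with coding exons, and Alg13 starts downstream of the coding transcripts and shares none. The coding transcript of the symbol highest in that RIP had a lower ratio: 2.13 for Mga, 1.59 for Hnrpdl, 1.54 for Bptf, 1.73 for Pabpc1 and 3.03 for Clcn3. That of Gigyf2 had an input of 0, and for Alg13 and Trp53inp1 none was listed. For Pabpc1, 94.4% of the bases are shared, and its mRNA stood far above it, at 149 FPKM in the input and 258 in the RIP.

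The highest Mettl3 RIP levels included those of abundant housekeeping loci. Dynll1, a dynein light chain, stood at 43.9 FPKM in the input and 71.9 in the RIP, and Npm1, the nucleolar protein nucleophosmin, at 32.7 and 55.7. Their ratios were 1.64 and 1.70, while Pabpc1 and Trp53inp1, also among the 6 highest, had the ratios given above. Eif4g2, a translation initiation factor, was listed at 0 in the input and at 65.1 FPKM in the RIP, while the coding transcript highest in that RIP had an input of 62.3 and a RIP level of 98.1 FPKM. Of its 429 bases, 90.7% are shared with coding exons. Gnb2l1, the ribosomal scaffold Rack1, was likewise listed at 0 and 30.4 FPKM.

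In the Zfp217 RIP the highest ratio was that of Sfpq, a splicing factor of paraspeckles: a 925-base transcript went from 1.66 to 9.87 FPKM (5.96-fold, 2.81 to 14.6), on about 7.86 input fragments. Its last 216 bases are not in any coding exon. The better measured ones were C1qbp, a mitochondrial matrix protein, from 10.4 to 41.8 FPKM (4.03-fold, 2.79 to 5.97), and Thoc4, an mRNA export adaptor, from 13.7 to 51.9 (3.78-fold, 2.69 to 5.41). Zc3h15, a zinc finger protein, went from 3.78 to 15.6 FPKM (4.12-fold, 2.74 to 6.37).

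The remaining 4 of the top 8 rested on inputs of 6.25 or fewer estimated fragments. They were the splicing repressor Ptbp1 (1.79 to 7.84 FPKM), the ubiquitin-conjugating enzyme Ube2b (1.04 to 4.49), the diphthamide synthesis gene Dph3 (2.30 to 9.16) and the formin-binding gene Fnbp4 (3.77 FPKM in the RIP). Their intervals start between 1.04 and 1.74, so their order is not resolved. The highest Zfp217 RIP levels were again housekeeping loci, led by the ribosomal protein gene Rpl23 at 73.4 FPKM in the input and 119 in the RIP. Dynll1 stood at 44.4 and 72.1. With an input of 0, the ribosomal protein gene Rpl12 reached 33.5 FPKM and the translation initiation gene Eif1 26.5.

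The tables shared 361 processed transcripts, 36.5% of the Mettl3 and 37.3% of the Zfp217 members. Of the protein-coding transcripts, 43.9% of those for Mettl3 and 55.4% of those for Zfp217 were shared, and of the retained introns 39.9% and 37.9%. Both tables draw on the same input library and the same lower limits. The shared transcripts had median RIP levels of 2.03 and 2.06 FPKM, and those in one table only 1.66 and 1.69. By symbol, 399 of 1260 were in both tables, more than by transcript, because some genes were listed with another transcript of the class in each. Orc4, a subunit of the origin recognition complex, had 3 processed transcripts in the Mettl3 table and 5 in the Zfp217 table, of which 3 were shared.

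Between the antibodies the shared transcripts stood at similar levels, but only transcripts above the limits of both tables enter this comparison. Those high in one RIP and under the limits for the other are left out of it. Among them are the Eif4g2 transcript at 65.1 FPKM in the Mettl3 RIP and the Pabpc1, Hnrpdl and Alg13 transcripts named above, none of them listed for Zfp217. The Mettl3 RIP was higher for 187 of 361, with a median ratio of Mettl3 to Zfp217 RIP of 1.03 (quartiles 0.723 and 1.4), and 38 were at least 2-fold higher in Mettl3 and 31 at least 2-fold higher in Zfp217. The median over all 4026 shared transcripts of any class was 1.07. In both RIPs at once, 58 of 165 (35.2%) were at least 2-fold higher than the input, against 38.5% of all transcripts, and with an input of at least 1 FPKM these were 6 of 70 (8.57%), against 14.2%. Since both ratios divide by one input library, this count is a description only.

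**Figure D3:**
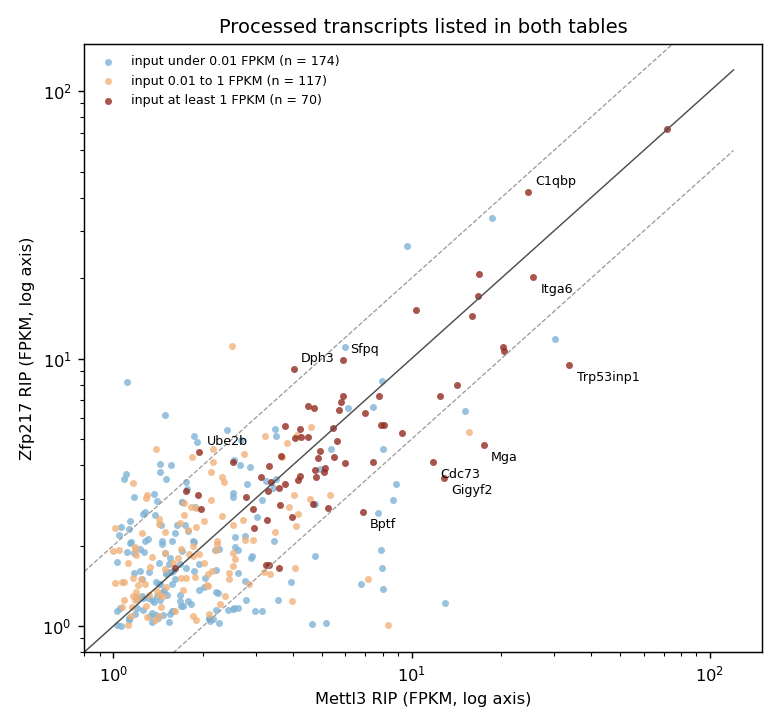
RIP levels of the 361 processed transcripts listed in both tables (FPKM, log axes), coloured by input level, with the line of equal levels and dashed lines at 2-fold. The points lie on both sides of the line of equal levels, 187 of them higher in the Mettl3 RIP.

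Of the shared transcripts with an input of at least 1 FPKM, the furthest toward Mettl3 was Mga, at 17.4 FPKM in the Mettl3 RIP and 4.77 in the Zfp217 RIP, 3.65-fold apart (2.56 to 5.32). Trp53inp1 stood at 33.8 and 9.47 FPKM, 3.57-fold apart (3.19 to 4.02). Gigyf2 stood at 12.8 and 3.59, also 3.57-fold apart (2.78 to 4.65). For these 3, and for Cdc73, a subunit of the Paf1 elongation complex (11.8 and 4.12), and Bptf (6.88 and 2.67), the interval of counting error stayed above 1.6-fold.

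Toward Zfp217 the differences were smaller. C1qbp stood at 24.5 FPKM in the Mettl3 RIP and 41.8 in the Zfp217 RIP, 1.71-fold apart (1.35 to 2.16), and Sfpq at 5.87 and 9.87 (1.68-fold, 1.11 to 2.55). Dph3 stood at 4.03 and 9.16 (2.27-fold, 1.22 to 4.36). For Ube2b (1.95 and 4.49) and Ubac1 (1.76 and 3.21) the intervals reached below 1, so at this depth no difference could be told. These 10 were picked as the extremes of the shared list, so their differences are a description.

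High in both RIPs were Itga6, the alpha-6 integrin (7.16 FPKM in the input, 25.6 in the Mettl3 RIP, 20.3 in the Zfp217 RIP), and Orc3, an origin recognition subunit (1.78, 6.98 and 6.24). Clcn3 (1.42, 7.43 and 4.10), Nup160 of the nuclear pore (1.44, 5.14 and 3.91) and the cold-induced RNA-binding protein Rbm3 (1.67, 4.24 and 5.45) followed. For Orc3, Nup160 and Rbm3 the interval of the direct ratio included 1, while for Itga6 it was 1.11 to 1.44 and for Clcn3 1.39 to 2.37, toward Mettl3.

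**Figure D4:**
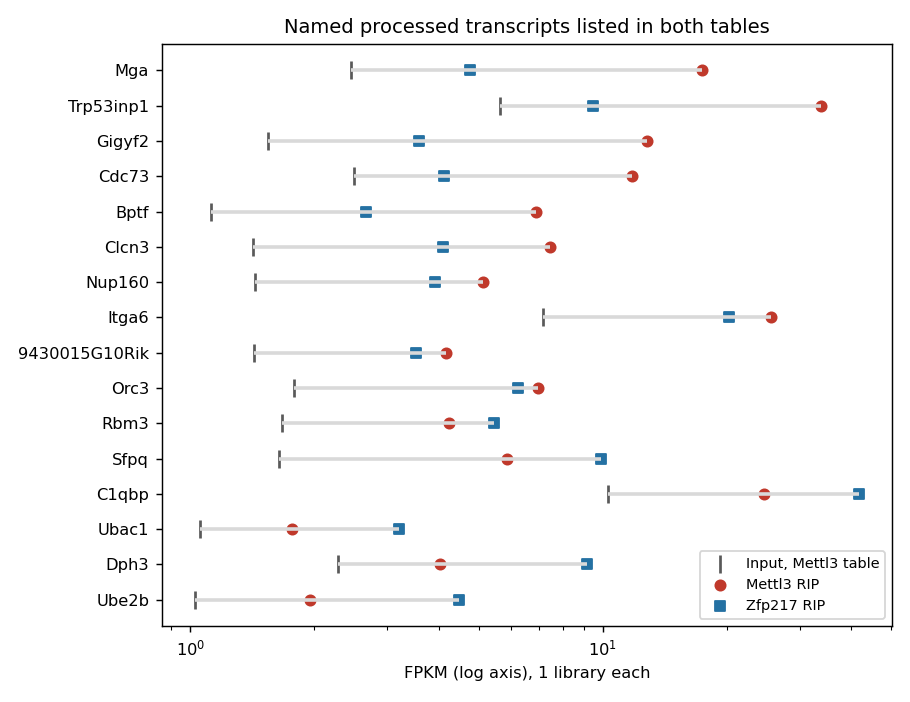
FPKM (log axis) of 16 named processed transcripts in the input (as given in the Mettl3 table), the Mettl3 RIP and the Zfp217 RIP, ordered by the ratio of Mettl3 to Zfp217 RIP; each mark is 1 library. The RIP marks lie right of the input mark for all 16, with Mga, Trp53inp1 and Gigyf2 furthest apart toward Mettl3 and Ube2b and Dph3 toward Zfp217.

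Levels were close whether or not a protein-coding transcript of the same symbol was listed. One was listed for 451 of 989 members of the Mettl3 table (374 symbols) and 383 of 968 of the Zfp217 table (324 symbols). With a coding transcript listed, the median RIP level was 1.85 FPKM (Mettl3) and 1.80 (Zfp217), and without one 1.75 and 1.81. An input under 0.01 FPKM was found for 55.7% with and 55.8% without a listed coding transcript (Mettl3), and for 62.7% and 59.5% (Zfp217). At least 2-fold higher were 59.7% (141 of 236) with and 53.5% (144 of 269) without for Mettl3, and 59.2% (116 of 196) and 58.5% (175 of 299) for Zfp217. With an input of at least 0.01 FPKM the shares were 39.9% and 30.2% for Mettl3 and 29.8% and 32.2% for Zfp217. The order thus differed between the antibodies, and no replicate spread is available to set these differences against.

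Having no listed coding transcript did not mean a noncoding gene. Of the 538 and 585 members without one, 443 and 520 belong to protein-coding genes in M21. For 475 and 503 members no transcript of another class was listed under the symbol at all. An example is Ttc4, a cochaperone of heat shock proteins, with 1 processed transcript in the Mettl3 table and 4 in the Zfp217 table and every input listed at 0. Its 851-base transcript stood at 6.11 FPKM in the Mettl3 RIP and 6.52 in the Zfp217 RIP, and all of its bases lie in coding exons.

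Where a coding transcript was listed, the processed transcript was usually the lower one. It exceeded every listed coding transcript of its symbol in 120 of 451 cases for Mettl3 (26.6%) and 112 of 383 for Zfp217 (29.2%). At the median it had 0.543 and 0.639 times the RIP level of the highest coding transcript. In 158 and 126 cases the processed transcript was under 0.01 FPKM in the input while that coding transcript was not, and in 49 and 45 it was the reverse. With both inputs of at least 1 FPKM the ratios of RIP to input were close: medians of 2.19 for processed and 2.13 for coding transcripts over 61 pairs in Mettl3, with the processed one higher in 31, and 1.93 and 2.12 over 29 pairs in Zfp217, with the processed one higher in 13. Within these pairs the processed transcript was thus higher in 31 of 61 and 13 of 29.

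**Figure D5:**
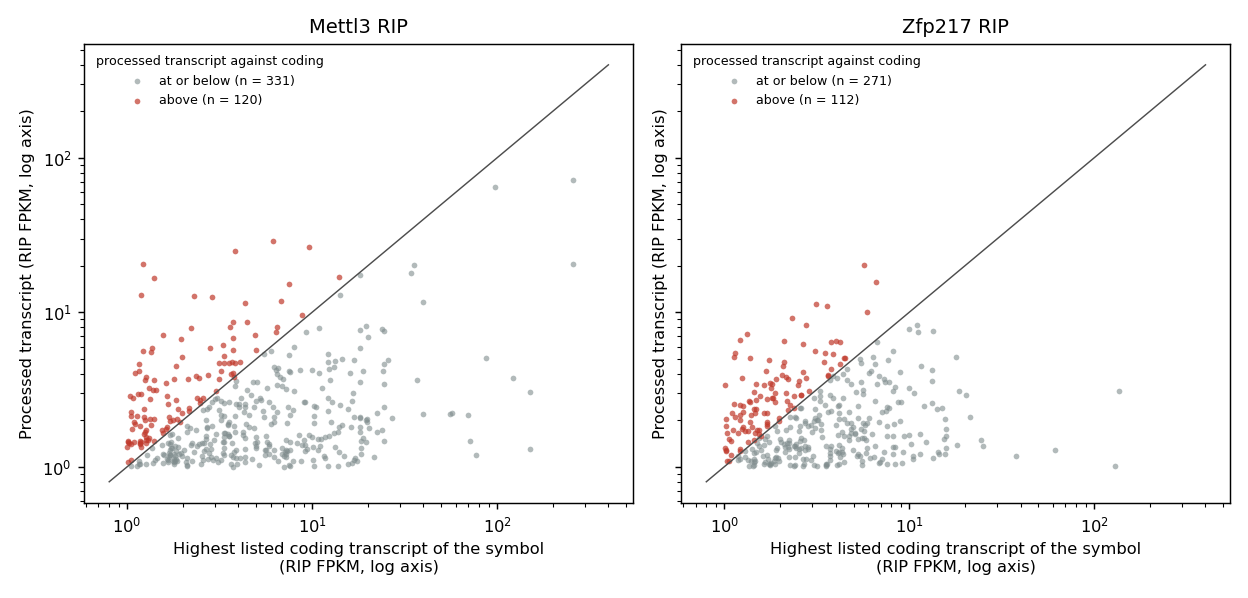
RIP level of each processed transcript against that of the highest listed coding transcript of its symbol (FPKM, log axes), 451 for Mettl3 and 383 for Zfp217, with the line of equal levels. Red points lie above the line, 120 and 112 of them.

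The pairs furthest apart ran both ways. Itga6 had 20.3 FPKM on the processed and 5.69 on the highest coding transcript of the Zfp217 RIP. In the Mettl3 RIP, Hexdc, a hexosaminidase, had 28.8 against 6.13 FPKM and Spen, a repressor bound by Xist RNA, 26.6 against 9.62. At the other end, Ybx1, a Y-box RNA-binding protein, had 3.76 FPKM on the processed and 122 on the coding transcript, and Igf2bp1, an m6A reader, 5.03 and 86.7. The Igf2bp1 transcript shares 9.12% of its bases with coding exons and stood at 2.30 FPKM in the input, 2.19-fold below its RIP level. Its highest coding transcript went from 44.0 to 86.7 FPKM, so both were about as much higher in the RIP.

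Several symbols had more than 1 member: 123 in the Mettl3 and 122 in the Zfp217 table, up to 5 each. These members share reads and are not independent. Mga had 5 in the Mettl3 table, at 17.4, 7.70, 2.11, 2.08 and 1.68 FPKM, of which the first was 7.12-fold, the second 1.76-fold, the third 4.47-fold (from an input of 0.472) and the fourth 1.52-fold above the input, and the last had an input of 0. Orc3 also had 5, at 6.98, 2.60, 2.10, 1.34 and 1.01 FPKM, with inputs of 0 for 2 of them. Members of one gene thus differed several-fold from one another in level. Mettl2, a methyltransferase of tRNA, had 4 in the Mettl3 table, and its 2556-base transcript went from 1.91 to 5.10 FPKM there and from 1.93 to 3.76 in the Zfp217 table.

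Noncoding genes and pseudogenes supplied 80 members of the Mettl3 and 48 of the Zfp217 table. They were less often listed at an input under 0.01 FPKM, 31.3% and 35.4% against 57.8% and 62.2% of the members from coding genes. By the rule of size 15 of 48 (31.3%) and 11 of 28 (39.3%) were at least 2-fold higher, against 258 of 440 (58.6%) and 268 of 449 (59.7%) of those from coding genes. Of all listed transcripts these were 51.1% and 49.1%. Inputs of 0 pass the rule from 2 FPKM in the RIP, so these counts take in the difference in zeros. With an input of at least 1 FPKM, the median ratios were 1.95 over 21 transcripts and 1.84 over 7, against 2.02 and 1.93. Their transcripts were longer in the Mettl3 table, 899 against 690 bases at the median, and similar in the Zfp217 table, 702 against 668.

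The longest of them was also the one with the highest ratio in the Mettl3 table, counting inputs of 1 FPKM or more. It is 1700020I14Rik, the locus known as Cyrano or Oip5os1, a conserved long noncoding RNA at chr2:119594303-119607502 (plus strand, GRCm38), whose transcript here has 3 exons and 8300 bases. It stood at 5.24 FPKM in the input and 22.2 in the Mettl3 RIP, 4.24-fold higher (3.72 to 4.84), on about 262 and 1768 fragments. It was not listed for Zfp217. By the limits of that table its Zfp217 RIP level was then under 1.5 times its input, which does not mean that it was absent. The RNA is known for a site with extensive pairing to the microRNA miR-7, and the transcript sequence holds it: the seed match (7 bases, bases 2 to 8 of the microRNA) occurs 2 times, and at bases 2933 to 2959 a further 14 of the 15 bases beyond the seed can pair if 2 bases of the site next to the seed match are left unpaired. The microRNA (RefSeq, GRCm38.p6, seed in capitals) and the site (seed match in capitals) are printed 5′ to 3′ for comparison.
mmu-miR-7a-5p: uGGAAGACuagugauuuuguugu
Site in 1700020I14Rik: gaacaacaaaatcaccaatGTCTTCCa

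The seed match was found in 138 of 1495 processed transcripts of at least 300 bases (9.23%), so by itself it is no mark of this RNA. The same transcript holds GGACT 8 times. With inputs of 1 FPKM or more, other members from noncoding genes had lower ratios: the antisense transcript Gm16568 went from 7.40 to 16.9 FPKM (2.28-fold, 1.78 to 2.96). Gm11714 went from 3.76 to 6.62 FPKM. Below that input, ratios reached 18.2 (4.78 to 156) for E130317F20Rik, from 0.103 to 1.88 FPKM. Windows around 1 GGACT match each of 1700020I14Rik, Gm16568 and Gm11714, the match with the most others within 45 bases or the first of equals, with GGACT in capitals, show the m6A consensus in transcripts that M21 assigns to no protein-coding gene.
1700020I14Rik: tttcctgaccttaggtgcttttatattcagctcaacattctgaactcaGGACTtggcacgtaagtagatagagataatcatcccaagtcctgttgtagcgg
Gm16568: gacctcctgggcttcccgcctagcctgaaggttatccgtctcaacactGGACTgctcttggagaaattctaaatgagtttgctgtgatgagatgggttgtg
Gm11714: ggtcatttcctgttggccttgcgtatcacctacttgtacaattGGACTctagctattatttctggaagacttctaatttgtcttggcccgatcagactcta

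The best known nuclear RNAs (Neat1, Malat1, Tug1 and others) are among the symbols left out by the rule. The transcripts of 6720401G13Rik, the X-linked long noncoding RNA Firre, stood at 3.70 FPKM in the input and 5.80 in the Mettl3 RIP, and at 3.74 and 6.89 in the Zfp217 table, for the one transcript in both. Snhg12, a host of small nucleolar RNAs, went from 2.69 to 5.10 FPKM in the Mettl3 RIP (1.89-fold, 0.992 to 3.86), and Snhg3 was listed at 0 in the input and at 2.77 and 1.47 FPKM in the RIPs. Gm11974, which M21 names Snhg15, had a transcript at 4.19 FPKM in the input and 9.35 in the Zfp217 RIP (2.23-fold, 1.1 to 4.88), the highest level among the Zfp217 members from noncoding genes. Another of its transcripts stood at 2.75 FPKM in the Mettl3 RIP and 4.39 in the Zfp217 RIP, with inputs under 1 FPKM. The host gene Snhg17, listed as 9430008C03Rik, stood at 0 in the input and 2.02 FPKM in the Zfp217 RIP. Platr14, named for its association with pluripotency and listed as 4930500J02Rik, had 4 transcripts in the Mettl3 table and 1 in the Zfp217 table, all with an input of 0. The one in both stood at 3.51 and 5.13 FPKM. An input of 0 leaves the ratio undefined.

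GGACT was found on the transcript strand in 60.0% of the Mettl3 and 55.7% of the Zfp217 members, against 78.7% and 73.6% of all listed transcripts, which are longer. In classes of equal length the shares were 43.6% against 39.5% (300 to under 600 bases), 57.8% against 55.7% (600 to under 1000), 70.6% against 78.3% (1000 to under 2000) and 94.7% against 96.2% (2000 and more) in the Mettl3 table. Per kilobase there were 1.11 and 1.1 matches in members and 1.02 and 1.09 in all transcripts. The same letters on the other strand, AGTCC, were in 57.8% and 51.5% of the members. Among members with an input of at least 1 FPKM and at least 300 bases, those with GGACT had a median ratio of 2.08 and those without 1.99 for Mettl3, and 1.83 and 2.09 for Zfp217. The order thus differed between the antibodies, and members with the motif were longer, with median lengths of 836 against 599 bases (Mettl3) and 770 against 592 (Zfp217). Of the 16 transcripts with the highest ratios, 8 for each antibody, 8 hold GGACT (Gigyf2, Trp53inp1, Pabpc1, Clcn3, Ube2b, Zc3h15, C1qbp and Dph3) and 8 do not.

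By function of the host gene, the members spread over many pathways, and for each group the count below is of transcripts at least 2-fold higher of those with a mean of at least 1 FPKM, with the median log2 ratio, to be read beside 51.1% (Mettl3) and 49.1% (Zfp217) of all transcripts and medians of 1.02 and 0.98. Splicing and hnRNP factors had 7 of 13 for Mettl3 (1.38) and 10 of 13 for Zfp217 (1.54), led by Hnrpdl and Sfpq. Cell cycle and replication genes had 10 of 15 (1.82) and 9 of 13 (1.47), with Orc3 at 3.92-fold and 3.47-fold and Top2a, the replicative topoisomerase, at 1.51-fold in Mettl3. Cytosolic ribosomal proteins had 5 of 7 (1.93) and 7 of 12 (1.17), and translation factors 7 of 9 (1.96) and 4 of 8 (1.04). In these 4 groups 5 to 16 of the members had an input under 0.01 FPKM, so part of each count follows from zeros.

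Polycomb and Trithorax genes had 3 of 6 in each table (1.22 and 1.26), with Wdr5 at 2.01-fold and 2.37-fold and Jarid2, a subunit of the Polycomb repressive complex, at 1.57-fold and 1.92-fold. Chromatin remodellers had 4 of 5 (1.89) and 1 of 3 (0.78), with Bptf at 6.12-fold and 2.35-fold. Zinc finger genes named Zfp had 6 of 7 (1.67) and 1 of 1, ubiquitin enzymes 6 of 10 (1.38) and 2 of 6 (0.93), and solute carriers 3 of 6 (1.36) and 3 of 7 (0.69). Genes of oxidative phosphorylation had 3 of 4 (1.94) and 2 of 4 (1.37), none with an input of at least 1 FPKM. Zeros enter these counts too. An input under 0.01 FPKM was found for 9 of 12 and 7 of 7 Zfp members and for 5 of 7 remodeller members in each table. For ubiquitin enzymes it was found for 8 of 14 and 6 of 13, and for oxidative phosphorylation for 6 of 8 and 7 of 9. Heat shock genes had 4 of 6 and 3 of 4, glycolysis genes 1 of 3 and 1 of 3, and RNA helicases 0 of 2 and 2 of 2. Genes listed under a clone or predicted number had 32 of 69 (0.92) and 27 of 51 (1.08). Some of these have other names, among them Snhg15, Snhg17 and Platr14. Small RNA hosts listed under an Snhg symbol had 1 of 2 in Mettl3 (Snhg15 and Snhg17, listed under other symbols, are not in that count). The other named long noncoding RNAs had 2 of 3 and 1 of 2, and all of them are also counted among the clone or predicted numbers.

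Pluripotency and m6A genes had few members in the class, and so did some other groups for their number of coding transcripts. Of the pluripotency list only Rif1, a telomere and replication timing factor, had processed transcripts, 2 in the Mettl3 table at 1.18 to 2.09 FPKM and 2.60 to 4.44 FPKM (1.76-fold and 1.71-fold). Coding transcripts of that list numbered 36 and 30, and those of the m6A list 24 and 18. Genes named Zfp had 12 members beside 291 coding transcripts for Mettl3 and 7 beside 158 for Zfp217. All genes together had 989 members beside 6403 and 968 beside 5082. Differences between groups were not tested. Of the m6A list only Igf2bp1 and Igf2bp2 had processed transcripts. The mean of 1 FPKM was reached by 1 Igf2bp1 transcript in each table, and neither passed the rule of size, which adds 1 FPKM to both values. The plain ratio of the one in the Mettl3 table was 2.19. The Igf2bp2 transcript, at 1.64 FPKM in the Mettl3 RIP with an input under 0.01 FPKM, was left out by that minimum. Of 10 embryonic stem cell markers 6 were listed as coding transcripts in each table, Nanog, Pou5f1, Sox2, Esrrb, Klf4 and Dppa4, and none of the fibroblast, endoderm, mesoderm, neural or trophoblast markers was listed. Since the tables hold only transcripts higher in a RIP, a marker that is not listed may still be present. Of mitochondrial RNAs, none of them in the class, 5 were listed in each table. Their summed levels were 1.51 FPKM in the input and 4851 in the Mettl3 RIP, and 13.5 and 5926 in the Zfp217 table. They include tRNA genes, mt-Te, mt-Th and mt-Tn for Mettl3 and mt-Th and mt-Tv for Zfp217. These are shorter than the estimated mean fragment of 140 bases in either RIP. On so short a transcript few fragments can give a very high FPKM, so the sums do not measure a fold difference. Whether the mitochondrial RNAs came from outside the nuclei was not tested.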

How the data were processed

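The authors deposited 2 tables, 1 per antibody, with the FPKM of the input and of the RIP for each Ensembl transcript, its symbol, class and log2 fold change, which was not used for any result. The submitters' processing notes name the build mm9 and the tools TopHat2 2.0.8, Bowtie2, Cuffdiff, Cufflinks and CASAVA 1.4; their settings and the annotation release were not given in the sources used here. From the deposited values, rows had been selected at 1 FPKM in the RIP and 1.5-fold over input.

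Ratios were taken within a table, as plain FPKM ratios or as log2((RIP + 1)/(input + 1)), which understates low transcripts. No plain ratio is given for an input under 0.01 FPKM. The counts at least 2-fold higher and the median log2 ratios of gene groups do include such transcripts. Depth was estimated as the fragment number that makes low FPKM values whole multiples of 1 fragment, within 0.06 of a fragment: 133 of 165 values (80.6%) for Mettl3, 164 of 184 (89.1%) for Zfp217 and 150 of 177 (84.7%) for the input were whole. Fragment numbers of transcripts that share exons are the authors' division of reads. The depth estimate, the rule of size and the motif count were checked on simulated data with known answers. Those data held no inputs near 0 and no reads shared among transcripts, so the check does not cover these. Lengths, exons, sequences and coordinates came from GENCODE M21 on GRCm38 by transcript identifier, with Python 3.11.15, pandas 2.3.3 and scipy 1.17.1; no coordinate was taken from mm9.

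Samples were grouped by title and antibody label, with 1 library per group and no test. Named transcripts have at least 300 bases: per RIP the 8 highest ratios with both values at least 1 FPKM, the 6 highest levels, overall and with an input under 0.01 FPKM; the 8 highest in both; the 5 furthest apart each way; the 5 extreme pairs with coding transcripts; and up to 3 per gene list, of which the text gives a selection. Ttc4, Orc4, Mettl2, Platr14, Snhg3, Snhg15, Snhg17, further Mga and Orc3 transcripts, and the members printed from noncoding genes were chosen after their values were seen. The members and the 18 gene lists were chosen with earlier results of these data known. Alternatives are given at the end. Some items are not reported here.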

Additional observations from a re-analysis of the deposited data

How the results depend on the processing

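No paired analysis was possible because each group had 1 library and the labels carry no replicate numbers; leaving out a library was likewise not possible. Of 48 alternatives over 12 results, 27 stayed within the limit set for a change (1.5 times for counts, the counting interval for shares). Without a filter on low values the counts at least 2-fold higher were 684 for Mettl3 (in place of 285), 689 for Zfp217 (291) and 204 in both (58). Where the input reached 0.01 FPKM they were 117, 93 and 25, and where it reached 1 FPKM 56, 27 and 6. With a pseudocount of 0.1 FPKM the count in both was 100. The shares without and with a listed coding transcript became 72.5% and 76.7% for Mettl3 and 77.9% and 73.5% for Zfp217 with that pseudocount, and 30.2%, 39.9%, 32.2% and 29.8% for inputs from 0.01 FPKM. For Zfp217 the share without a coding transcript was thus the higher under both settings, and also, at 60.2% against 57.7%, with the coding transcript sought in either table. Pairs with the processed transcript above the coding ones numbered 59 and 57 for inputs from 0.01 FPKM. AGTCC in place of GGACT gave 51.5% in the Zfp217 table. The input minimums leave out the zeros by construction; the cause of the other moves was not tested. Restricting to 300 bases or more, taking 1 transcript per symbol or keeping the 8 named symbols moved no count by over 1.5 times. Depth is a limit: 47.3% and 63.8% of the members had fewer than 10 estimated RIP fragments.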
